A study of Brassica napus with 48 samples.

Results

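The chloroplast genome of a land plant codes for part of the photosynthetic apparatus, and 43 such genes could be followed in flower buds of Brassica napus (oilseed rape). They were chosen by symbol: every probe set of the Arabidopsis ATH1 array whose annotation names 1 gene, and whose plastid symbol begins with psa, psb, pet or ndh or is rbcL, atpA, atpB, atpE, atpF, atpH or atpI. These 43 are among 22810 probe sets on the array, of which 13513 are annotated with 1 gene; the rule uses no measured value. The probe set of ndhB names a pair of genes, because that gene lies in the repeated part of the plastid genome, and it was not counted. Of the 43, 42 passed the filter on low signal: 15 genes of photosystem II, 5 of photosystem I, 6 of the cytochrome b6f complex, 6 of the ATP synthase, 9 of the NDH complex and rbcL. The gene left untested was ndhF, a membrane subunit of the NDH complex, with a mean signal of 161.

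The 48 arrays came from field-grown plants of a pair of lines that segregate dominant genic male sterility (DGMS), in which a dominant allele Ms stops pollen formation and a dominant allele Rf restores it. In the homozygous two-type line J10 the sterile plants (J10A) were MsMsrfrf and the fertile plants (J10B) MsMsRfrf, so that every J10 plant carried Ms on both chromosomes. In the heterozygous two-type line J03 the sterile plants (J03A) were Msmsrfrf and the fertile plants (J03B) msmsrfrf, so that no J03 plant carried Rf. Small buds (under 1 mm, tetrad stage), middle buds (1 to 3 mm, uninucleate stage) and large buds (over 3 mm, trinucleate stage) were collected from each, which gives 12 groups of 2 biological replicates, each hybridised 2 times. Whole buds were pooled from several plants, so sepals, petals, pistils and anthers are mixed, and fewer green cells in a bud cannot be told apart from less plastid RNA per cell. Each line stands for itself alone: the genotype at Ms and Rf and every other difference between J10 and J03 cannot be told apart.

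In a chloroplast the photosystems capture light, the cytochrome b6f complex passes electrons from photosystem II to photosystem I, and the ATP synthase uses the resulting proton gradient to make ATP. The NDH complex returns electrons from the stroma to the plastoquinone pool around photosystem I, and Rubisco fixes carbon dioxide. The plastid genome holds the reaction centre proteins and many small membrane subunits of these complexes, the nucleus holds most antenna proteins and regulators, and neighbouring plastid genes are usually transcribed together and then cut into shorter RNAs. In flower buds green sepals and young carpels carry chloroplasts, whereas petals, anthers and pollen mostly hold other plastid types.

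A probe set's signal is a brightness scaled to the same trimmed mean of 500.0 on every array, and array medians ran from 339 to 412. Levels are therefore compared between groups of 1 gene and not between genes, and changes are differences of log2(signal + 113), so that those of dim genes are understated. The plastid genes varied more between biological replicates than other probe sets did, with a median standard deviation of 0.47 against 0.32 on the log2 scale. The ratio of 3′ to 5′ signal on the array's control probe sets, a sign of RNA quality, ran from 1.496 to 1.948 (log2) in sterile J10, from 0.883 to 1.49 in fertile J10, from 0.894 to 1.33 in sterile J03 and from 0.728 to 1.23 in fertile J03. The medians of the 42 genes stood in the same order as the medians of that ratio (1.76, 1.24, 0.975 and 0.927), at 11.79 in sterile J10, 11.25 in fertile J10, 10.99 in sterile J03 and 10.46 in fertile J03. Array labelling of this kind usually starts at the poly(A) tail of an mRNA, which plastid transcripts mostly lack or carry only briefly. The part of RNA quality in the results was not tested beyond a fit adjusted for this ratio. A call of the 42 genes lost in that fit is named as such, and for other genes such losses are not given. Within fertile J10, replicate 2 had the higher ratio at each size (1.48, 1.49 and 1.48 against 0.992, 0.883 and 0.905 in replicate 1). The median gap of the genes there, replicate 1 minus replicate 2, was 0.03, 0.52 and 0.07. In small buds that gap gave no clear direction, as the median over the 42 genes was 11.39 in replicate 1 and 11.76 in replicate 2. In sterile middle and large J03 buds replicate 1 had both the higher ratio (0.961 against 0.894 and 1.33 against 0.989) and the brighter genes. In sterile small J03 buds replicate 1 had the higher ratio (1.23 against 0.907) and the dimmer genes, with a median gap of -0.45. Single replicates stood apart. Sterile large buds of J10 and J03 were brighter in replicate 1 by a median of 0.52 and 0.64 (log2) over the 42 genes and sterile middle buds of J03 by 0.73.

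Over the 12 groups the plastid photosynthesis genes were brightest most often in sterile large buds of J10 and dimmest most often in fertile middle and large buds of J03. Sterile large J10 buds had the highest mean for 20 of the 42 genes, sterile large J03 buds for 7 and sterile middle J10 buds for 6. Fertile middle J03 buds had the lowest mean on that scale for 16 and fertile large J03 buds for 13. The ratios below are of mean signals on the linear scale, where the highest group of a gene can be another. The distance between groups varied widely from gene to gene and within each of the larger complexes. The ratio of the highest to the lowest group mean was 10.6 for psbA, 9.24 for psbT, 8.87 for psbL and 8.83 for psbF, all of photosystem II, and 6.30 for petL of the cytochrome b6f complex. Each of these 5 rests in part on replicate 1 of sterile large J10 buds, and with replicate 2 alone as the highest value the ratios were 6.37, 5.50, 5.62, 3.71 and 3.70 in that order. Photosystem II also held psbK at 1.73 and psbE at 2.01, while the ratio reached 4.93 for atpA and 4.81 for ndhG. With replicate 2 of the highest group alone, it was 4.15 for atpA (sterile large J10 buds) and 1.12 for ndhG (sterile middle J03 buds). In that group the ndhG ratio therefore rests on replicate 1. ndhG was also high in replicate 2 of sterile middle J10 buds (4257, against 1192 in replicate 1), its highest group on the log2 scale. For ndhH, also of the NDH complex, the ratio was 4.35, and 3.31 with replicate 2 of sterile large J10 buds alone. At the other end the ratio was 1.46 for ndhK and 1.23 for atpB, the beta subunit of the ATP synthase. Replicate signals of atpB lay between 64445 and 98084 throughout.

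**Figure D1:**
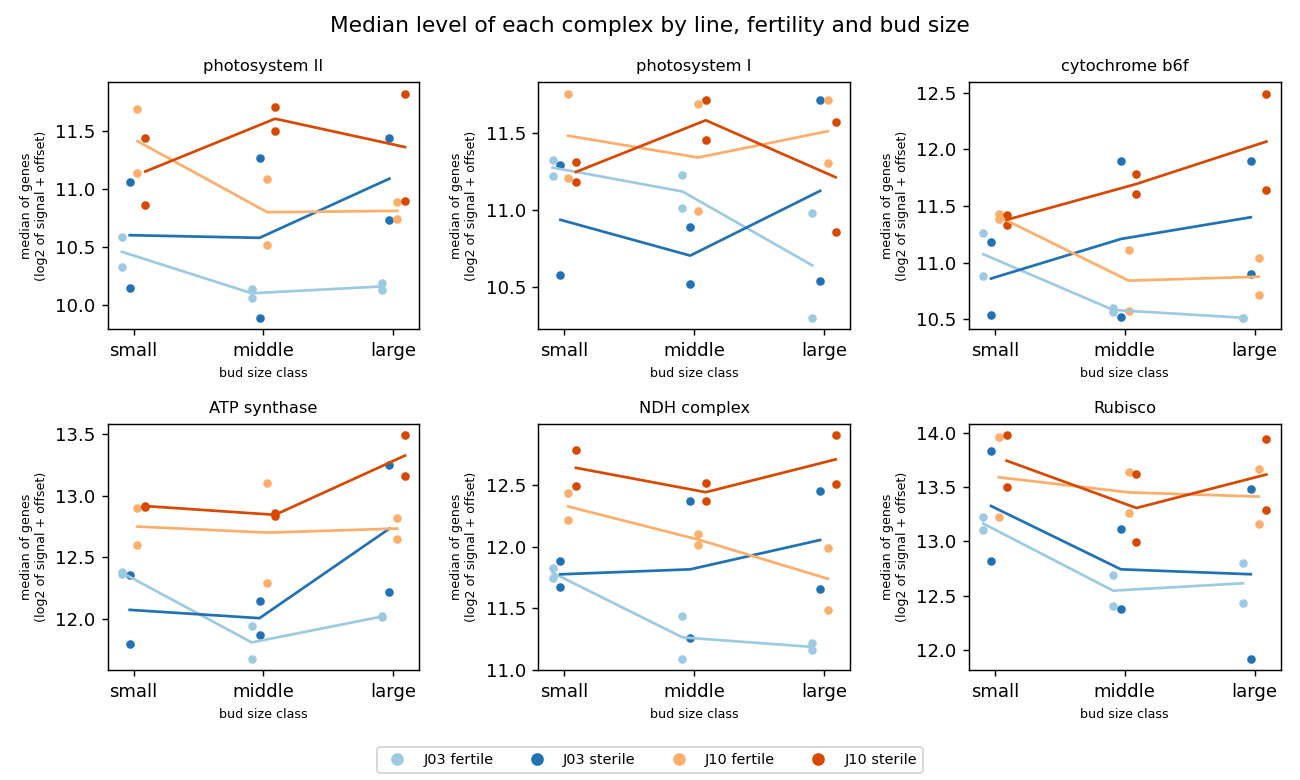
Median log2 signal of the tested genes of each complex in the 12 groups of line, fertility and bud size, drawn for each of the 2 biological replicates. Sterile J10 lies highest at most sizes. Fertile J10 lies above it in small buds for both photosystems and cytochrome b6f, in middle buds for Rubisco and in large buds for photosystem I. Fertile J03 lies lowest in middle and large buds, except for photosystem I in middle buds, where sterile J03 does. Replicates often differ by as much as the bud sizes do.

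Taken by complex, the median log2 signal of the 9 NDH genes was 12.64 ± 0.21, 12.44 ± 0.10 and 12.71 ± 0.28 (SD, n = 2) in small, middle and large sterile J10 buds. In fertile J03 buds of the same sizes it was 11.79 ± 0.06, 11.27 ± 0.25 and 11.19 ± 0.04. For the 6 cytochrome b6f genes the medians were 11.38 ± 0.06, 11.69 ± 0.13 and 12.07 ± 0.60 in sterile J10 and 11.07 ± 0.27, 10.58 ± 0.02 and 10.51 ± 0.00 in fertile J03. Both complexes were thus brighter in sterile J10 than in fertile J03 at each size, and the gap was wider in middle and large buds than in small ones. These groups differ in both line and fertility. The 15 photosystem II genes stood at 11.15 ± 0.41, 11.60 ± 0.15 and 11.36 ± 0.65 in sterile J10 against 10.45 ± 0.18, 10.10 ± 0.06 and 10.16 ± 0.04 in fertile J03. Photosystem I, with 5 genes, was the exception in small buds, where its median of 11.25 ± 0.09 in sterile J10 was close to the 11.28 ± 0.07 of fertile J03. Within J10, fertile small buds lay above sterile ones for photosystem II (11.41), photosystem I (11.48) and the cytochrome b6f complex (11.41). In large buds fertile J10 did so for photosystem I (11.51 against 11.21). For the NDH complex and the ATP synthase sterile J10 lay above fertile J10 at each size.

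Most of the calls among the 42 genes came from the comparison of the lines. Over all buds, 19 of the 42 genes (45.2%) were higher in J10 than in J03 and none was lower, at an adjusted p under 0.05 (limma with Benjamini-Hochberg adjustment over all 13999 probe sets tested); among all probe sets 7.44% were higher and 15% differed in either direction. The change was positive for 41 of the 42 genes, with a median of 0.46 on the log2 scale against -0.01 for all probe sets. In 21 of the 42 (50%) the J10 mean exceeded the J03 mean in each of the 6 combinations of fertility and bud size, which held for 8.13% of all probe sets. Each complex held called genes: 7 of 15 genes of photosystem II, 2 of 5 of photosystem I, 3 of 6 of the cytochrome b6f complex, 2 of 6 of the ATP synthase, 4 of 9 of the NDH complex, and rbcL. When the 3′ to 5′ ratio entered the model, 10 genes were called, 8 of them among the 19, where 3.49% of all probe sets were called in either direction. The genes called in all of the 33 other settings tried were psbF, psbL, psaI, psaJ, petA, petL, ndhC and ndhH.

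**Figure D2:**
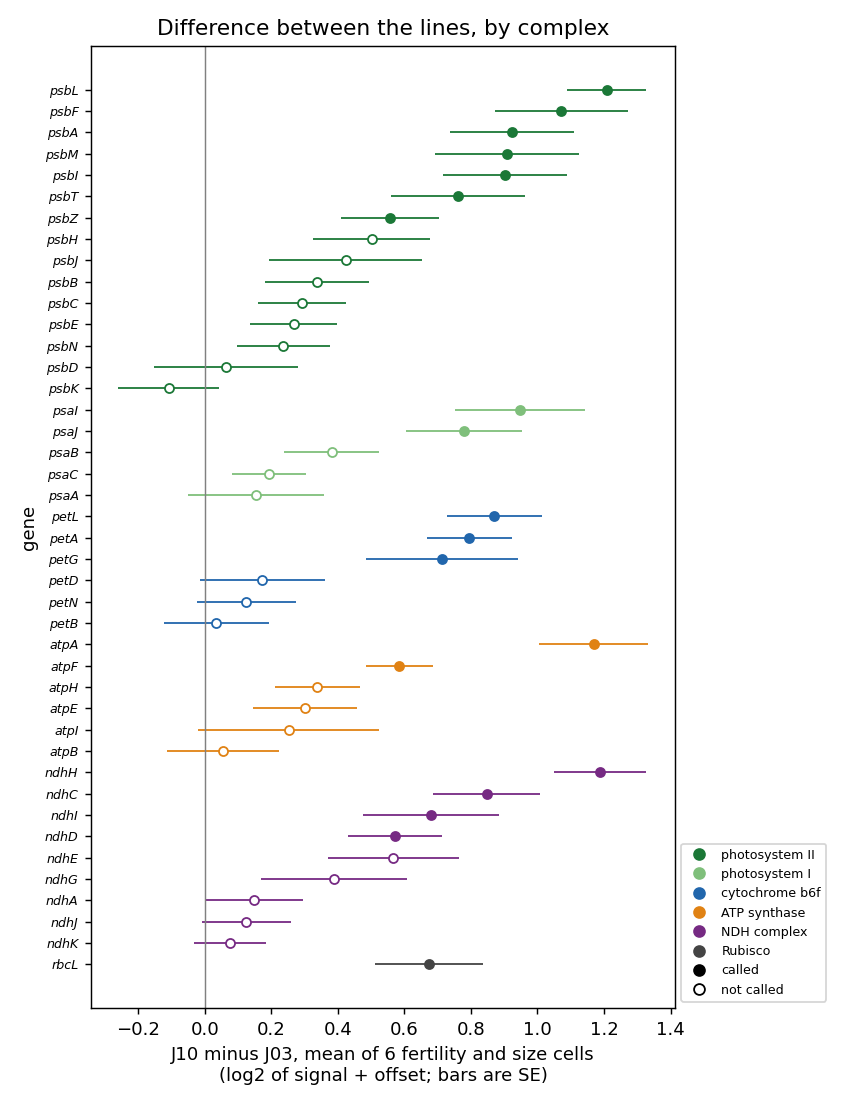
Difference between J10 and J03 over all buds (log2, limma estimate with its SE) for each of the 42 tested genes, grouped by complex. Filled points are called higher in J10, and 41 of the 42 estimates lie above 0.

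Among the photosystem II genes, psbL led. It codes for a very small subunit at the interface of the photosystem II dimer. In sterile J10 its signal was 4246 and 4018 in the 2 replicates of small buds, 7813 and 4451 in middle buds and 15338 and 7108 in large buds. In fertile J10 it was 2657 and 3230.5, then 2621 and 2004, then 1937 and 2254. Every sterile J10 replicate lay above every fertile one. Sterile J03 gave 2172 and 2020.0 in small, 1988 and 2093 in middle and 1989.7 and 1586 in large buds. Fertile J03 gave 1997 and 1457, 1532 and 997 and 1307 and 1339. At each size the 2 fertile J10 replicates lay above the 2 fertile J03 replicates, and the sterile J10 replicates lay above both J03 groups. The line difference was 1.21 ± 0.117 (SE, adjusted p = 9.7e-08).

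The other photosystem II genes called higher in J10 were mostly small subunits as well. psbF, the beta subunit of cytochrome b559, had signals of 3327 to 12773 (median 3800.0) in sterile and 1224 to 3998 (median 2068) in fertile J10, and of 706 to 3633 (median 1932) in sterile and 794 to 2082 (median 1187) in fertile J03. These ranges overlapped, and the line difference was 1.07 ± 0.199 (SE, adjusted p = 0.00048). psbI, a small subunit beside the D1 protein, changed by 0.90 ± 0.186 (SE, adjusted p = 0.0014) and psbM, a small subunit at the dimer interface, by 0.91 ± 0.216 (SE, adjusted p = 0.005). psbM was low throughout fertile J03: its 6 replicates ran from 482 to 918 (median 767), against 725 to 4309 (median 2457) in sterile J03, 1431 to 3476 (median 2574) in fertile J10 and 1545 to 3506 (median 2807) in sterile J10. Fertile J03 overlapped the sterile J03 range and neither J10 range. psbA, the gene of the rapidly replaced reaction centre protein D1, differed by 0.92 ± 0.187 (SE, adjusted p = 0.0011), psbT by 0.76 ± 0.201 (SE, adjusted p = 0.011) and psbZ by 0.56 ± 0.147 (SE, adjusted p = 0.011). Of these, psbA, psbI and psbM lost the call in the ratio-adjusted fit, psbT also in the first hybridisations alone, and psbZ also after quantile normalization and in the second hybridisations alone. psbT was dim, with signals of 93 to 325 in fertile J03, 85 to 602 in sterile J03 and 169 to 479 in fertile J10. It passed the filter on low signal only through J10 groups, where it was higher, so its line difference is weak evidence. The call was kept when the filter was dropped. The D2 protein gene psbD (0.06, adjusted p = 0.88) and the core antenna genes psbB (0.34, adjusted p = 0.15) and psbC (0.29, adjusted p = 0.14) did not pass the test.

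In photosystem I the genes called were psaI and psaJ, which code for small membrane subunits at its edge. psaI differed by 0.95 ± 0.196 (SE, adjusted p = 0.0014), with signals of 3446 to 12420.1 (median 6946) in sterile J10, 2648 to 7899.8 (median 5989.7) in fertile J10, 1629.5 to 8516 (median 3455) in sterile J03 and 2168 to 3671 (median 3022) in fertile J03. psaJ differed by 0.78 ± 0.174 (SE, adjusted p = 0.0028), and its 12 J10 and 12 J03 replicates overlapped. The reaction centre genes psaA (0.15, adjusted p = 0.68) and psaB (0.38, adjusted p = 0.074), and psaC (0.19, adjusted p = 0.27), which carries the terminal iron-sulphur clusters, did not pass. Core and edge of photosystem I therefore stood on different sides of the threshold, which is no test of a difference between them.

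In the cytochrome b6f complex petA, petL and petG were called. petA codes for cytochrome f, which hands electrons to plastocyanin. Its signals were 21654 to 49150.3 (median 33916) in sterile J10 and 24607 to 35176 (median 28515) in fertile J10, against 15486 to 24471 (median 20119) in sterile J03 and 14257 to 20845 (median 15768) in fertile J03. All J10 replicates lay above fertile J03 and the lowest J10 replicates overlapped the top of sterile J03, and the difference was 0.80 ± 0.128 (SE, adjusted p = 9.7e-05). The small subunit genes petL (0.87 ± 0.143, SE, adjusted p = 0.00012) and petG (0.71 ± 0.229, SE, adjusted p = 0.036) followed. The call of petG was lost in 17 of the 33 other settings. These include the ratio-adjusted fit and the omission of any one of 14 of the 24 replicates. In those 14 the change ran from 0.52 to 0.72. petB, the gene of cytochrome b6 (0.04, adjusted p = 0.91), petD, of subunit IV (0.17, adjusted p = 0.59), and petN, of another small subunit (0.12, adjusted p = 0.63), did not pass.

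In the ATP synthase atpA and atpF were called. atpA, the alpha subunit of the catalytic head, differed by 1.17 ± 0.164 (SE, adjusted p = 2e-05) and atpF, a subunit of the stalk, by 0.58 ± 0.101 (SE, adjusted p = 0.00021). Their unit neighbours atpH (0.34, adjusted p = 0.079), the proton-carrying ring subunit, and atpI (0.25, adjusted p = 0.59) did not pass, nor did atpB (0.06, adjusted p = 0.87) and atpE (0.30, adjusted p = 0.21) of the head; differences between these genes were not tested. For atpA the signals were 3041 to 5913 (median 3458) in sterile J10, 1376 to 3630.1 (median 2500.3) in fertile J10, 688 to 3636 (median 1445) in sterile J03 and 833 to 1320.2 (median 1133) in fertile J03. Fertile J03 lay wholly below both J10 sets, while sterile J03 held the lowest replicate of all and overlapped both J10 sets. The calls of atpA and atpF were lost in the ratio-adjusted fit and in no other of the 33 settings.

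Among the NDH genes ndhH, a subunit of the arm that faces the stroma, was higher in J10 by 1.19 ± 0.138 (SE, adjusted p = 1.5e-06). Its signals in sterile J10 were 9097 and 6954 in small, 12743 and 6331 in middle and 12355 and 7582 in large buds. Fertile J10 gave 6099.9 and 5447, 8997 and 4063 and 6521 and 5423. Replicate 1 was the brighter one in all 6 J10 groups, and the sterile and fertile ranges overlapped. Sterile J03 gave 3254 and 4506, 2280.1 and 2736 and 6017 and 3173, and fertile J03 4219 and 4084, 2931 and 2064 and 2287 and 2293. At each size both J10 replicates exceeded both J03 replicates of the same fertility. The membrane subunit genes ndhC (0.85 ± 0.161, SE, adjusted p = 0.00059) and ndhD (0.57 ± 0.141, SE, adjusted p = 0.0065) and the iron-sulphur subunit gene ndhI (0.68 ± 0.205, SE, adjusted p = 0.025) were also called. ndhI lost the call in 9 of the 33 other settings. These were the ratio-adjusted fit, the first hybridisations alone and 7 that leave out a single replicate (0.499 to 0.66). ndhD lost its call only in the ratio-adjusted fit. ndhJ (0.12, adjusted p = 0.59) and ndhK (0.08, adjusted p = 0.7), which are transcribed with ndhC, did not pass.

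rbcL, which codes for the large subunit of Rubisco, differed by 0.67 ± 0.162 (SE, adjusted p = 0.0055), and lost that call only in the ratio-adjusted fit. Its signals ran from 8534 to 16201 (median 12038) in sterile J10, 9139.5 to 15878 (median 11268) in fertile J10, 3989 to 14490.4 (median 8016) in sterile J03 and 5297 to 9518 (median 6975) in fertile J03. All 4 ranges overlapped. In sterile large J03 buds rbcL ran against most of the other genes, with 3989 and 11482 in replicates 1 and 2.

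Within the photosystems and the cytochrome b6f complex, genes were grouped by protein role after these values were seen. Calls over all buds were most frequent among those labelled small subunits. Of 13 small subunits of the photosystems and the cytochrome b6f complex 9 were called higher in J10, with a median change of 0.76, against 2 of 9 large core proteins, psbA and petA, with a median of 0.29. The remaining photosystem genes, psbE, psbF, psbN and psaC, formed another group of 4, of which psbF was called. These role labels are not a measure of protein length. No test of the difference between these groups was made. Position in the plastid genome gave a mixed picture. All 3 genes of the petL-petG-psaJ unit and both of psaI-petA were called, and 3 of 7 tested genes of the unit that runs from ndhH to ndhD, namely ndhH, ndhI and ndhD. By contrast, only psbT of the 5 genes of psbB-psbT-psbH-petB-petD, only psbZ of psbD-psbC-psbZ and only ndhC of ndhC-ndhK-ndhJ passed, and none of psaA-psaB and atpB-atpE.

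**Figure D3:**
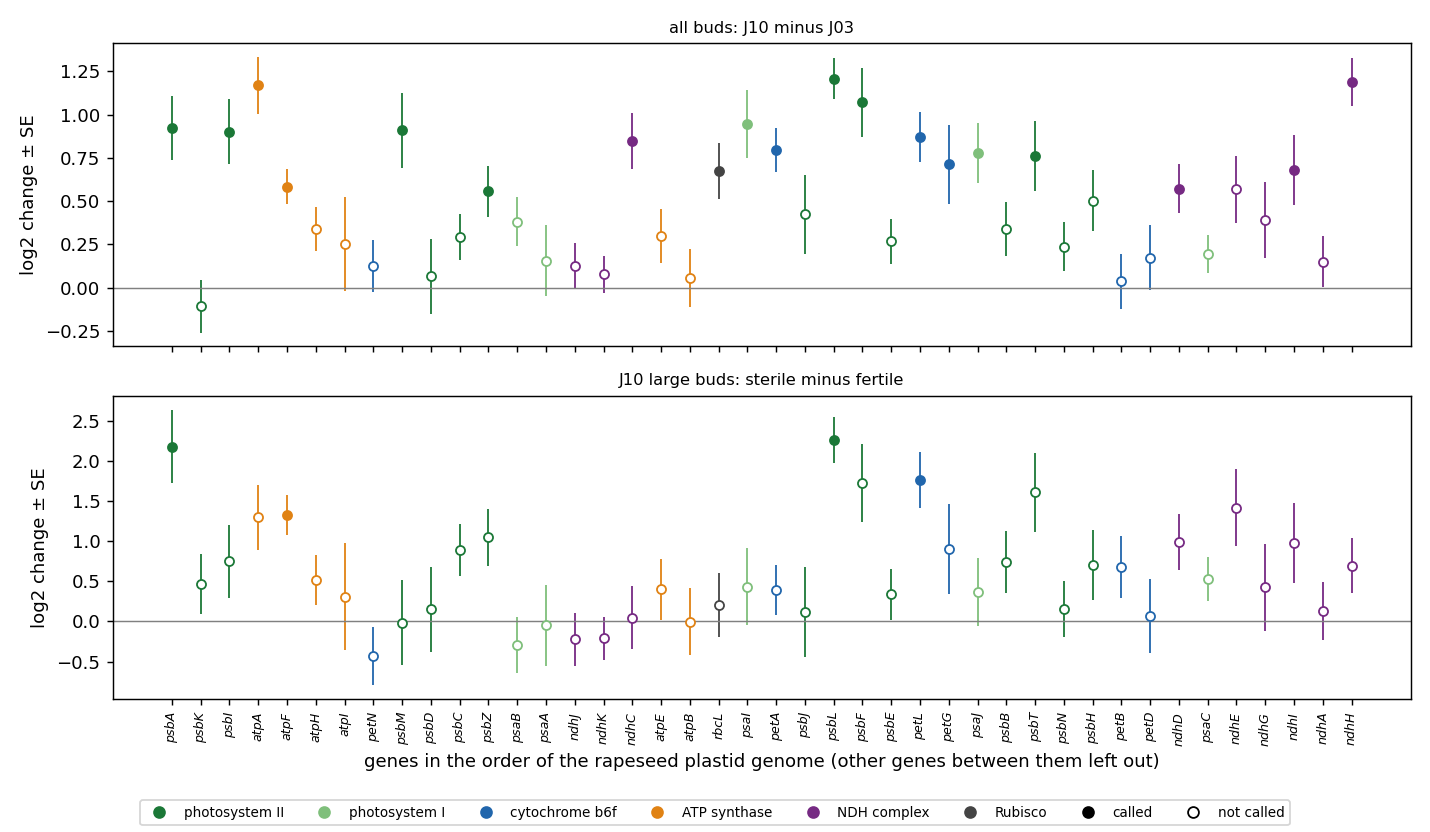
Changes with their SE (log2) of the 42 tested genes in their order along the plastid genome, coloured by complex, for J10 minus J03 over all buds (upper panel) and sterile minus fertile in large J10 buds (lower panel), with filled points for genes called. Called genes are spread along the whole order, and neighbours of 1 transcription unit often stand on different sides of the threshold.

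Split by fertility and bud size, the comparison of the lines gave 5 calls, all in sterile buds; whether the sterile and fertile differences differed was tested separately, and limma called none of the 42 genes at any size. In sterile small buds atpF was called at 1.16 ± 0.247 (SE, adjusted p = 0.016), with 1156 and 1229 in J10 and 418 and 553 in J03 (1.25% of all probe sets called in either direction); leaving out any one of these 4 replicates ended the call (adjusted p up to 0.15), as did the ratio-adjusted fit. In sterile middle buds ndhH (1.75 ± 0.338, SE, adjusted p = 0.0052) and psbL (1.41 ± 0.287, SE, adjusted p = 0.0082) were called, where 2.39% of all probe sets were. The ndhH call was lost without J10 replicate 1 or J03 replicate 1, and the psbL call without J10 replicate 1 or either J03 replicate (adjusted p up to 0.13 and 0.17); psbL was also lost in the ratio-adjusted fit. In sterile large buds psbL (2.53 ± 0.287, SE, adjusted p = 1.4e-05) and petL (1.54 ± 0.35, SE, adjusted p = 0.015) were called, where 2.66% of all probe sets were. psbL held in all 12 other settings run for it, and petL was lost without J10 replicate 1 or J03 replicate 2 (adjusted p up to 0.34) and in the ratio-adjusted fit.

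In fertile buds limma called none of the 42 genes at any size. At an unadjusted p under 0.05 there were 6 in small, 11 in middle and 9 in large buds (14.3%, 26.2% and 21.4%, against 9.64%, 10.6% and 9.82% of all probe sets). After adjustment 0.393%, 0.571% and 0.564% of all probe sets were called in either direction. psbM had the widest gap there. In fertile large buds it stood at 1645 and 3148 in J10 and 535 and 482 in J03, with no overlap, for a difference of 1.95, adjusted p = 0.12.

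Within J10, the number of genes called in sterile against fertile buds was 0 in small, 1 in middle and 4 in large buds. In small buds limma called none of the 42 genes, with 1 at an unadjusted p under 0.05 (7.21% of all probe sets were) and 0.107% of all probe sets called. In middle buds psbL rose by 1.24 ± 0.287 (SE, adjusted p = 0.044), where 0.571% of all probe sets were called, and omitting any of these replicates except sterile replicate 2 ended the call, at an adjusted p of up to 0.41, and so did the ratio-adjusted fit. Large buds had 4 called genes, all higher in sterile plants, where 0.5% of all probe sets were called higher and 2.44% in either direction. The share of genes with both sterile replicates above both fertile ones was 19% in small, 35.7% in middle and 50% in large buds, against 18.1%, 16.9% and 20.9% of all probe sets. The median change in large buds was 0.45, with 35 of 42 genes positive. In 17 genes (40.5%) the sterile mean lay above the fertile mean at all 3 sizes, against 17.6% of all probe sets, and psbL, psbA, petL, psbT and atpF were among them. Whether the change grew from small to large buds was tested in a contrast added after the values were seen: limma called psbL, whose change was larger in large buds by 1.77 ± 0.406 (SE, adjusted p = 0.039), where 0.607% of all probe sets were called. Leaving out any one of the 8 replicates but sterile large replicate 2 ended that call (adjusted p up to 0.29), and it was lost in the ratio-adjusted fit.

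**Figure D4:**
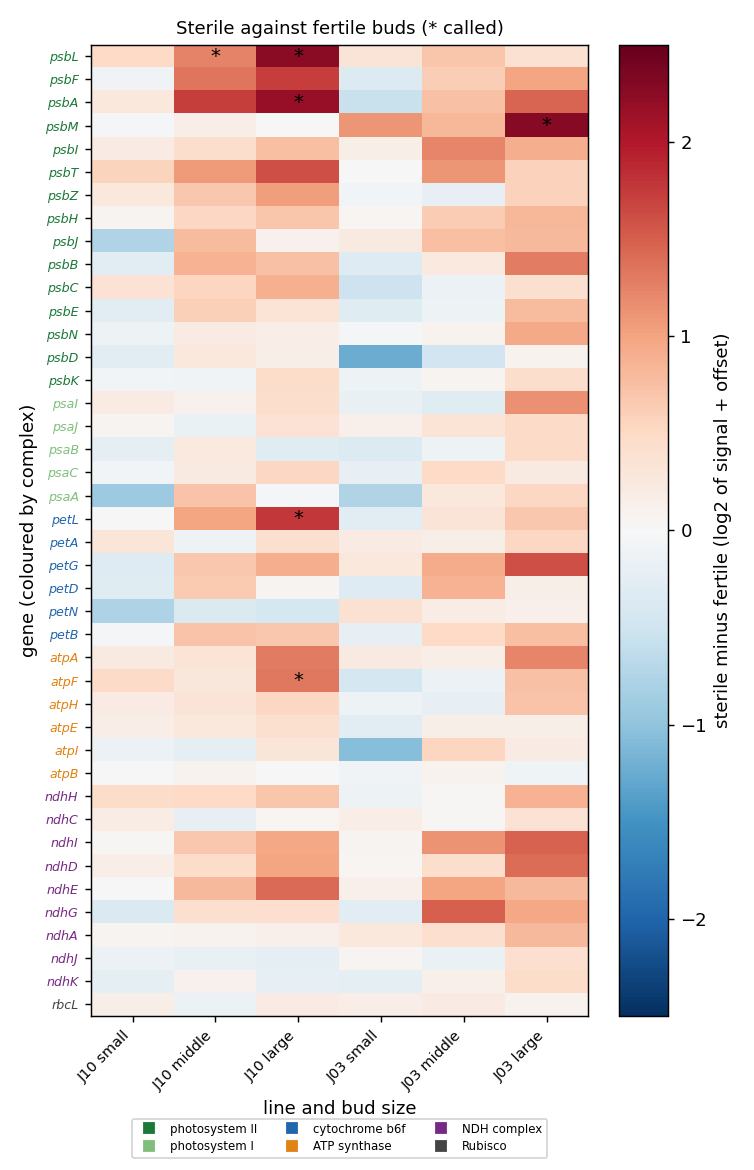
Heat map of the sterile minus fertile change (log2 of signal plus offset, colour scale) of the 42 genes, one line a gene, in each line and bud size, with asterisks at genes called at an adjusted p under 0.05. The J10 columns shift to higher values from small to large buds, and 41 of 42 genes are above 0 in large J03 buds.

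The 4 genes called in large J10 buds came from 3 complexes. psbL was at 15338 and 7108 in sterile and 1937 and 2254 in fertile buds, a rise of 2.26 ± 0.287 (SE, adjusted p = 3.1e-05). psbA stood at 14855 and 6413 against 2589 and 1695, a rise of 2.18 ± 0.458 (SE, adjusted p = 0.0078). In both genes the lower sterile replicate was well above the higher fertile one, and replicate 1 was the brighter of the sterile pair. petL was at 8664 and 3602 against 1604 and 1612, a rise of 1.76 ± 0.35 (SE, adjusted p = 0.005), and atpF at 1768 and 1562 against 588 and 638, a rise of 1.32 ± 0.247 (SE, adjusted p = 0.0029). Without sterile replicate 1 the calls of psbA, petL and atpF were lost, with adjusted p up to 0.2, and that of psbL was kept. psbA was also lost without fertile replicate 2, petL without fertile replicate 1 and in the first hybridisations alone, and atpF in the first and in the second hybridisations alone. In the ratio-adjusted fit the calls of all but psbL were lost. The ratio was 1.948 in replicate 1 and 1.939 in replicate 2 of sterile large J10 buds.

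Some J10 genes had wide gaps without a call. psbF was at 12773 and 3396 in sterile and 2054 and 1776 in fertile large buds, a difference of 1.72, adjusted p = 0.062. psbT, a small subunit of photosystem II, was at 1660.1 and 703 against 283 and 277, with 1.61, adjusted p = 0.086. atpA was at 5913 and 4299 against 1376 and 2928, with 1.299, adjusted p = 0.092. In each the sterile replicates lay above the fertile ones, and for psbF and psbT the sterile pair was far apart.

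**Figure D5:**
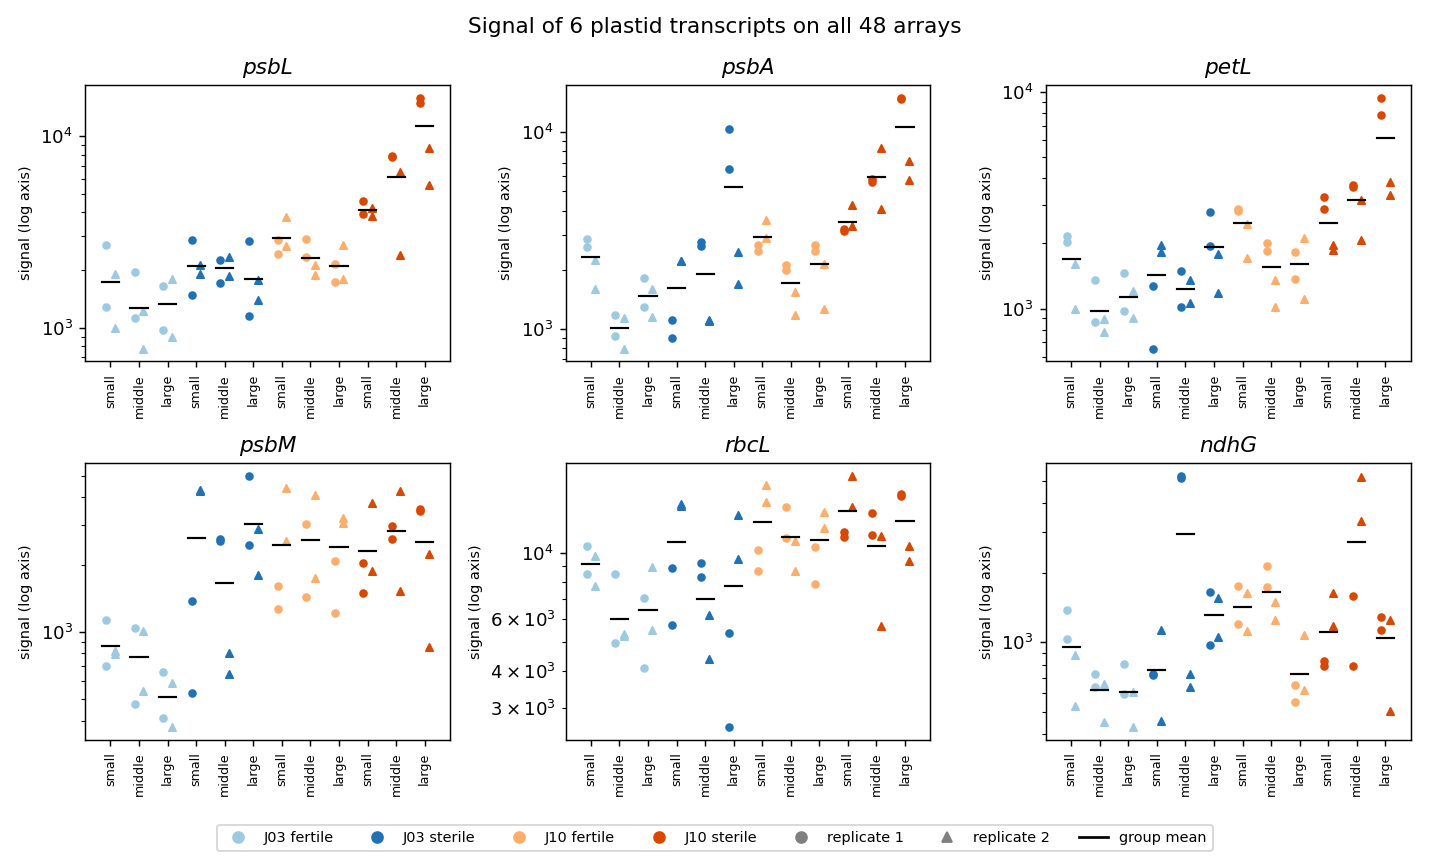
Signal of psbL, psbA, petL, psbM, rbcL and ndhG on each of the 48 arrays (log axis), with circles for replicate 1, triangles for replicate 2 and black lines for group means. psbL, psbA and petL are highest in sterile J10 large buds, psbM is low in every fertile J03 group, and ndhG is high in a single replicate each of sterile middle J10 and J03 buds.

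Over all 3 bud sizes 6 genes were higher in sterile than in fertile J10 plants and none was lower, where 0.914% of all probe sets were called higher and 3.49% in either direction. They were psbL (1.33 ± 0.166, SE, adjusted p = 3.4e-05), psbA (1.38 ± 0.264, SE, adjusted p = 0.0034), psbT (1.08 ± 0.284, SE, adjusted p = 0.034), psbF (0.99 ± 0.282, SE, adjusted p = 0.0498), petL (0.91 ± 0.202, SE, adjusted p = 0.011) and atpF (0.69 ± 0.142, SE, adjusted p = 0.0058). Of the 42 genes 36 had a positive change, with a median of 0.24. atpF ran from 956 to 1768 (median 1193) in the 6 sterile replicates and from 588 to 894 (median 730.0) in the 6 fertile ones, so that the sterile range lay wholly above the fertile range, as it did for psbL. The psbL call held in all 21 other settings, psbA was lost only in the ratio-adjusted fit, petL was lost there and without sterile large replicate 1, and atpF was lost there and in the first and the second hybridisations alone (adjusted p up to 0.42). psbF and psbT were each lost in 14 of the 21, among them the ratio-adjusted fit, psbF without any one of 10 and psbT without any one of 9 of the 12 J10 replicates (adjusted p up to 0.2 and 0.14). When the filter on low signal was dropped, the calls of psbF and psbT were lost as well. No gene of photosystem I or the NDH complex was called, and rbcL differed by 0.07, adjusted p = 0.93.

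Within J03, the large buds stood out by direction and psbM by its call. Sterile large buds had both replicates above both fertile ones for 31 of the 42 genes (73.8%), against 20.1% of all probe sets, and the change was positive for 41 with a median of 0.69. In middle buds the share was 28.6% (19.4% of all probe sets) and in small buds 2.38% (19.6%). psbM rose in large buds by 2.27 ± 0.53 (SE, adjusted p = 0.032), from 535 and 482 in fertile to 3726 and 2344 in sterile buds, where 0.964% of all probe sets were called. The groups did not overlap, but the call was lost without any one of the 4 replicates and in the second hybridisations alone (adjusted p up to 0.39). In small buds the sterile pair was 953 and 4309 against 918 and 807, and in middle buds 2570.1 and 725 against 758 and 776, so that 1 replicate of each sterile pair stood within or near the fertile values.

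In large J03 buds 14 of the 42 genes, psbM among them, reached an unadjusted p under 0.05 (33.3%, against 8.94% of all probe sets). The differences of ndhD, a membrane subunit of the NDH complex (1.39, adjusted p = 0.051), petG (1.61, adjusted p = 0.26), ndhI (1.48, adjusted p = 0.24) and psbA (1.45, adjusted p = 0.19) did not pass. psbA was at 8426 and 2079.8 in sterile large buds, an instance of a sterile pair led by replicate 1, which was over 1 log2 unit brighter than replicate 2 for 13 of the 42 genes. In small and middle J03 buds limma called none, with 2 and 6 genes at an unadjusted p under 0.05 (4.76% and 14.3%, against 6.92% and 5.64% of all probe sets), and 0.00714% and 0.0286% of all probe sets called. Over all sizes psbM was again the only gene called (1.405 ± 0.306, SE, adjusted p = 0.029; 0.621% of all probe sets), and that call was lost in 11 of 21 other settings, 9 of which leave out a single J03 replicate (adjusted p up to 0.15). In 16 genes (38.1%) the sterile mean was above the fertile mean at all 3 sizes, against 14.7% of all probe sets. From small to large buds no change was called to differ by limma, with 6 genes at an unadjusted p under 0.05 (14.3%, against 7.69% of all probe sets) and 0.364% of all probe sets called. All 9 NDH genes had a positive change over all sizes, and 5 of them reached an unadjusted p under 0.05, as 9.79% of all probe sets did, but none was called.

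Whether the sterile minus fertile change itself differed between the lines was tested at each size, and limma called none of the 42 genes. At an unadjusted p under 0.05 there were 2 genes in small, 0 in middle and 3 in large buds (4.76%, 0% and 7.14%, against 5.79%, 6.71% and 7.61% of all probe sets), and after adjustment 0%, 0.0286% and 0.0286% of all probe sets were called. In large buds the estimates of psbL (1.87 ± 0.406, SE, adjusted p = 0.12) and psbM (-2.28 ± 0.749, SE, adjusted p = 0.44) had opposite signs. Averaged over sizes, a contrast chosen after these values were seen, psbL gave 0.86, adjusted p = 0.097 and psbM -1.36, adjusted p = 0.16, with 7 genes at an unadjusted p under 0.05 (16.7%, against 10.7% of all probe sets) and 0.464% of all probe sets called. psbL in large buds was called in 5 other settings, at 2.02 (adjusted p = 0.012) after quantile normalization, at 1.87 with the 48 single arrays (adjusted p = 0.04) or the replicate number as a block (adjusted p = 0.024), at 1.87 without sterile middle J10 replicate 1 (adjusted p = 0.0497) and at 2.44 without sterile large J10 replicate 2 (adjusted p = 0.0049). A line difference in the sterile minus fertile change of psbL thus depended on the setting, and none was called for psbM. Among these settings, the fit of the 48 single arrays counts the hybridisations of a replicate almost as independent samples.

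limma called none of the 42 genes in the 8 contrasts between neighbouring bud sizes. In fertile J10 2 genes reached an unadjusted p under 0.05 from small to middle buds and 0 from middle to large (10.5% and 9.17% of all probe sets did, and 1.55% and 1.13% were called), and in sterile J10 1 and 3 did (9.54% and 6.45%, with 0.55% and 0.0714% called). In fertile J03 the counts were 3 and 0 (13.6% and 7.76%, with 3.04% and 0.814% called), and in sterile J03 1 and 10 (12.1% and 7.74%, with 2.01% and 0.471% called). The direction was uniform in 1 contrast: from small to middle fertile J03 buds 39 of 42 genes had a negative change, with a median of -0.39. psbA went there from 2727 and 1912 to 1047 and 966, and petL from 2091 and 1306 to 1112 and 836. Both middle replicates lay below both small ones in these genes. In the same contrast genes outside the 42 mostly fell as well. The change was positive for 1 of 14 plastid ribosomal protein genes (median -0.53) and 1 of 11 other plastid genes (-0.43). It was positive for 1 of 15 mitochondrial genes (-0.51), so the fall was not particular to the photosynthesis genes.

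Across the 24 biological replicates, which share line and array, the genes most like psbL were petL (Pearson r = 0.90), psbZ (0.86) and psbT (0.86). psbF, its neighbour in the same transcription unit, reached 0.83, and the other neighbours psbE and psbJ only 0.44 and 0.28. psbA was most like psbF (0.92), petL (0.90) and atpF (0.86). psbM was most like psbI (0.81), atpA (0.76) and ndhI (0.73), and rbcL most like petA (0.68), psbI (0.67) and ndhC (0.64). The median r was 0.62 over the 57 pairs from 1 transcription unit and 0.45 over the 804 other pairs, 0.52 over the 181 pairs of 1 complex and 0.45 over the 680 pairs of different complexes. Shared transcription units thus went with a somewhat higher r than shared complexes.

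Genes over 1 log2 unit apart between replicates were partly shared by a pair of groups. In sterile middle J10 buds 6 genes were that much brighter in replicate 2 and 6 others in replicate 1, and in sterile middle J03 buds 16 were brighter in replicate 1 and none in replicate 2. In replicate 2 of sterile middle J10 buds and in replicate 1 of sterile middle J03 buds, psbH, psbJ, petD, ndhA, ndhG and ndhI were all over 1 log2 unit brighter than in the other replicate of the group, an overlap noticed after the values were seen. ndhG, a membrane subunit of the NDH complex, was at 1192 and 4257 in the J10 pair and at 5183 and 684 in the J03 pair, and every other replicate lay between 519 and 1939. ndhG was most like petD (0.85) and psbJ (0.81). With both of these replicates left out, an alternative added after seeing the data, 24 genes were higher in J10 over all buds in place of 19, the first 19 among them.

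Genes outside the group were read from lists of the other plastid genes, of nuclear photosynthesis genes and of markers. Of the plastid ribosomal protein genes 11 of 14 tested were higher in J10 over all buds, with a median change of 1.18, and of other plastid genes 10 of 11, with a median of 0.94, which is more than the 0.46 of the photosynthesis genes. The mitochondrial genes did not share that direction, with 2 of 15 higher and 1 lower and a median of -0.06. Nuclear photosynthesis genes were few on the list of named and tested probe sets. RCA (Rubisco activase) was lower in J10, with a change of -0.85 ± 0.0911 (SE, adjusted p = 4.3e-07) and PRK (phosphoribulokinase) by -0.64 ± 0.0969 (SE, adjusted p = 4.4e-05), whereas PORB, an enzyme of chlorophyll synthesis, was higher by 0.87 ± 0.0817 (SE, adjusted p = 5.4e-08). The single nuclear ATP synthase gene tested, ATPC1, differed by -0.34 and was called, and PSBW, of photosystem II, by 0.31 and was called. Neither of the 2 nuclear light harvesting genes tested passed, nor did the 1 nuclear gene of photosystem I. Over all sizes of J10, limma called RCA (-0.52, adjusted p = 0.024), PRK (-0.61, adjusted p = 0.012), PORB (-0.49, adjusted p = 0.017) and ATPC1 (-0.53, adjusted p = 0.037) lower in sterile plants, while the 6 plastid genes named above were higher. There 3.49% of all probe sets were called in either direction. The 2 nuclear light harvesting genes, the 1 of photosystem I and the 2 of photosystem II were not called in that comparison. None of the 10 nuclear NDH genes listed and none of the 7 floral organ markers listed was named on a probe set of its own, and none of the 10 listed nuclear genes for plastid gene expression was tested.

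Of 6 listed tapetum and pollen genes 5 were named and tested (ACT12, AMS, AT5G07230, SHT and TET11). limma called none of the 5 between sterile and fertile plants in small buds of either line or in middle J03 buds, 1 lower in sterile middle J10 buds, 2 lower and 1 higher in large J10 buds, and 2 lower in large J03 buds. Their summed signal was 2075 to 4064 in small buds of all kinds, 14120.0 to 23630 in fertile middle and large buds, 15521 to 18589 in sterile middle J03 buds, 6669 to 9667 in sterile middle and large J10 buds and 5210.0 to 9763 in sterile large J03 buds. In large J10 buds SHT (-2.40) and TET11 (-1.48) were lower and AT5G07230 (1.51) higher in sterile plants, and in large J03 buds ACT12 (-2.33) and TET11 (-1.68) were lower. The part of these markers' cells in the higher plastid signals of sterile large buds was not tested.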

How the data were processed

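Signal intensities of 48 ATH1 arrays were made by the authors with MAS5, per the submitters' processing notes, and deposited on a linear scale, scaled to a 2% trimmed mean of 500.0 per array. The 2 hybridisations of a biological replicate, read from the sample titles, were averaged, which gave 24 columns. Their consensus correlation over probe sets, beyond the group, was only 0.0431, so over the whole array this reading is hardly borne out. The median log2 signals of the plastid photosynthesis genes followed it in some groups and not in others. In sterile middle J03 buds the hybridisations gave 11.48 and 11.40 in replicate 1 and 10.37 and 10.33 in replicate 2. Sterile small J03, fertile middle J10 and sterile large J10 buds were also so separated. In sterile middle J10 buds they gave 11.80 and 11.79 in replicate 1, but 12.27 and 11.39 in replicate 2. The p-values measure the spread between these samples, which may be technical. Probe sets were kept where both replicates of at least 1 group reached the array median: 13999 of 22810, with 64 controls left out. Differences of log2(signal + 113) were tested with limma 3.58.1 (R 4.3.3), 1 model of 12 groups with 12 residual degrees of freedom and a mean-variance trend, in 26 comparisons and 6 added after values were seen; adjustment followed Benjamini-Hochberg over the probe sets of a comparison, with calls under 0.05. The offset is the median over arrays of the 25th percentile of signal. Python 3.11.15 and matplotlib 3.10.9 drew the figures. The script was tested on simulated data. The members and lists were chosen with earlier results of these data known. Named by rule were up to 6 called genes with the largest change per comparison and direction, psbA, psbL, psbM, petL and rbcL always, the brightest tested gene of each complex, and up to 3 called genes of other lists; further genes were named after their values were seen. Alternatives changed the offset, filter, normalization, hybridisations, covariate, blocking and replicates. Probe mismatches between Arabidopsis probes and rapeseed were not examined, and no sequences are shown.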

Additional observations from a re-analysis of the deposited data

Results flagged for a closer look

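In J10 the sterile minus fertile change of psbL was larger in large than in small buds, by 1.77 ± 0.406 (SE, adjusted p = 0.039), in a contrast added after its values were seen (6 of the 42 genes, 14.3%, reached an unadjusted p under 0.05, against 8.8% of all probe sets). The call was kept in 4 of 16 other settings, in which the difference ran from 1.21 to 2.34 with adjusted p up to 0.36. Without sterile large replicate 1 it was 1.21 and without sterile large replicate 2 it was 2.34, the only one of these with a call; leaving out any one of the other J10 small or large replicates also ended it.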

How the results depend on the processing

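No called change of a named gene reversed its direction under any setting run. Of the genes not called over all buds, the sign turned for petB in 8 and psbD in 5 of 33 settings. It turned for atpB and ndhK in 2 each and for psbB, psbK, petD and ndhJ in 1 each. Median changes of all probe sets ran from -0.024 to 0.018 in the main fit and from -0.026 to 0.007 after quantile normalization. With a block for the replicate number within each line the number of the 42 genes called was 2 in middle and 9 in large J10 buds (1 and 4 without it), 3 in large J03 buds (1), 11 and 2 over all sizes of J10 and J03 (6 and 1), 1, 3 and 2 in the fertile and 4, 6 and 5 in the sterile line comparison of small, middle and large buds (0, 0, 0, 1, 2 and 2), 1 in sterile J03 from middle to large (0), 1 (psbL) for the difference between lines in large buds (0) and 22 over all buds (19). The labels do not say that a number marks a pair: same-numbered J10 samples deviated together with r from 0.094 to 0.292, J03 samples with r from -0.044 to 0.079. The 48 single arrays gave 2 and 11 in middle and large J10 buds, 7 in large J03 buds, 12 and 4 over all sizes, 1, 1 and 2 in fertile and 3, 7 and 7 in sterile line comparisons, 1 in sterile J03 from middle to large, 1 for the line difference in large buds and 24 over all buds. With a correlation of only 0.0431, that fit counts the 2 hybridisations of a replicate almost as independent samples, so its higher counts rest in part on repeated arrays. The ratio covariate gave 0 in middle and 1 in large J10 buds, 1 over all J10 sizes, 0, 1 and 1 in sterile line comparisons and 10 over all buds. First hybridisations gave 2 in large J10 buds and 0, 6 and 1 in sterile line comparisons. Second hybridisations gave 0 in middle J10, 0 in large J03, 3 and 0 over all sizes, and 0 and 0 in sterile small and middle line comparisons. Quantile normalization gave 1 and 1 in fertile middle and large, 2 and 4 in sterile small and middle line comparisons and 1 for the line difference in large buds. An offset of 16 and no filter each gave 0 in middle J10 buds. Without both replicates that stood apart, J03 over all sizes gave 0. The cause of these shifts was not tested.

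Leaving out 1 replicate gave 0 to 1 genes in middle and 1 to 6 in large J10 buds, 0 to 1 in middle and 0 to 5 in large J03 buds, 3 to 8 and 0 to 5 over all sizes of J10 and J03, 0 to 1 in fertile middle, 0 to 0 in sterile small, 0 to 3 in sterile middle and 1 to 6 in sterile large line comparisons, 0 to 2 and 0 to 3 in sterile J03 from small to middle and from middle to large, 0 to 1 for the line difference in large buds and 17 to 24 over all buds. Every other comparison gave 0 throughout. With 2 replicates a group and dim genes near the offset, small changes could not be detected.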
